A study of Mus musculus with 9 samples.

Results

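The chemokine and sphingosine-1-phosphate (S1P) receptors that guide B cells through the spleen and lymph nodes were examined as a set of 9 genes, Cxcr5, Cxcr4, Cxcr3, Ccr7, Ccr6, Ccr10, S1pr1, S1pr3 and S1pr4. They were picked by gene name from the 22174 genes of the deposited gene table, and all 9 were found in it. The libraries came from the splenic B cells of 9 mice of the C57/BL6NTac strain, 1 library from each mouse. The 3 Eµ-MTCP1 mice (Z2551, Z2606 and Z2641) carried the human transgene hMTCP1, all in founder line Z36, and the 3 Eµ-TCL1 mice (B4376, B4437 and C1594) carried hTCL1. Both transgenes are driven by an immunoglobulin heavy chain promoter and the Eµ enhancer, which restricts them largely to B cells, and both lines develop a leukemia resembling human chronic lymphocytic leukemia. The 3 wildtype mice (Z2754, Z2755 and Z2785) carried no transgene, and the labels name no treatment in any group. The B cells were obtained with a kit that removes other cells rather than by sorting the leukemic clone, and the ages of these mice are not given in the sources used here.

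Homing receptors are G protein-coupled receptors that read gradients of chemokines or of the lipid S1P. CCR7 answers to CCL19 and CCL21 and brings lymphocytes into lymph nodes and to the T cell zone. CXCR5 answers to CXCL13 and draws B cells into follicles, and CXCR4 answers to CXCL12 and retains cells in the bone marrow and in germinal centre dark zones. CCR6 answers to CCL20, CXCR3 to interferon-induced chemokines at inflamed sites, and CCR10 to CCL27 and CCL28, mainly in plasma cells bound for mucosa and skin. S1PR1 lets lymphocytes leave lymphoid tissue towards the S1P of blood and lymph, S1PR3 takes part in placing marginal zone B cells, and S1PR4 is a receptor largely limited to blood cells.

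Between 6464089 and 8053017 reads per library were assigned to a coding reference of mouse sequences that also held 17 human ones. Levels are given as CPM, counts scaled to 1000000 assigned reads after TMM normalisation, with the human sequences left out. At this depth 3 reads are worth 0.326 to 0.496 CPM. In the authors' normalised table, on a log2 scale, TCL1A lay between 14.9 and 15.6 in Eµ-TCL1 mice and between 6.04 and 6.96 in all other mice, and MTCP1 between 11.1 and 12.3 in Eµ-MTCP1 mice and between 5.85 and 6.19 in all others. B cell genes (Cd79a, Cd79b, Ms4a1, Pax5 and Cd22) summed to between 5589 and 8614 CPM in every library. The 6 genes chosen to mark B1 cells summed to between 47.8 and 75.2 CPM in wildtype mice and to between 553 and 788 CPM in the transgenic mice, with Cd5, a defining surface marker of B1a cells, at 0.745 to 4.84 and 23.9 to 83.5 CPM. Library Z2755 of a wildtype mouse was the only one on another sequencing lane, so that within the wildtype group lane and mouse cannot be told apart.

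Both leukemias had lower transcript levels of 4 homing receptor genes, and no member passed the test in the other direction. Of the 9 members, 4 were lower in Eµ-MTCP1 than in wildtype mice at an adjusted p under 0.05 and 0 were higher (edgeR quasi-likelihood F test, adjusted over all 11161 genes tested), where 3.98% of all genes tested were lower and 5.47% higher. In Eµ-TCL1 mice 4 of 9 were lower and 0 higher, against 4.06% and 5.11% of all genes. The 4 genes were Ccr7, Ccr6, Cxcr4 and Cxcr3 in each case, and both comparisons use the same 3 wildtype libraries. The members and the gene lists below were chosen with earlier results of these data known. Counts set beside the share over all genes are therefore a description and no test of the set. The median log2 fold change of the 9 members was -0.14 in Eµ-MTCP1 mice and -1.78 in the Eµ-TCL1 mice, beside -0.02 and -0.01 over all genes tested. Ccr10 had no reads in Eµ-TCL1 mice, and the Eµ-TCL1 median was also -1.78 with this gene set to the bound that 3 reads per library give, and -1.19 over the other 8 members. The Eµ-MTCP1 median of -0.14 includes Ccr10, so that it and -1.19 are taken over unlike sets. In the direct comparison of Eµ-TCL1 with Eµ-MTCP1 mice the median was -0.18 over the 9 members and -0.11 without Ccr10. Leaving out any 1 wildtype library (Z2754, Z2755 or Z2785) left 2 of the 4 calls in each comparison, those of Ccr7 and Ccr6. The same 2 calls were left without Z2551 or Z2641 in Eµ-MTCP1 mice, and without B4437 or C1594 in Eµ-TCL1 mice. Fewer cells of a type and less RNA per cell cannot be told apart in such bulk libraries.

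**Figure D1:**
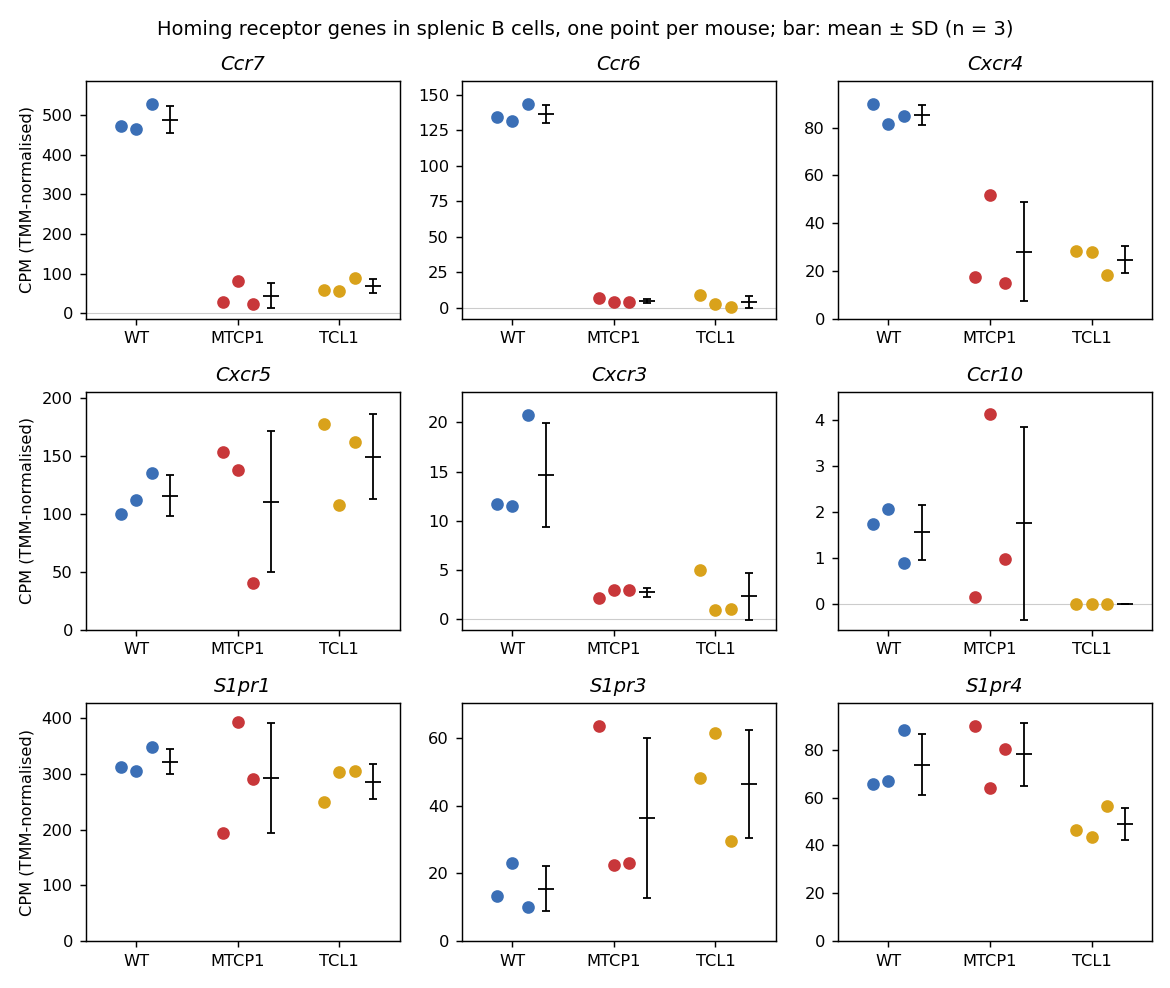
Level of each receptor gene in CPM (linear axes, 1 panel per gene) in wildtype (blue), Eµ-MTCP1 (red) and Eµ-TCL1 mice (yellow), with 1 point per mouse and the mean ± SD of 3 mice beside the points. Ccr7, Ccr6, Cxcr4 and Cxcr3 lay lower in all 6 transgenic mice than in any wildtype mouse. Cxcr5 lay between 40.7 and 178 CPM and S1pr1 between 195 and 393 CPM over all 9 mice.

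Ccr7 was the most abundant receptor of wildtype B cells and showed the largest difference in CPM. Its gene lies at chr11:99144196-99155077 on the minus strand (genome build GRCm38) and has 1 annotated transcript. Ccr7 stood at 472, 466 and 527 CPM in wildtype mice Z2754, Z2755 and Z2785, at 29.3, 80.7 and 22.2 CPM in Eµ-MTCP1 mice Z2551, Z2606 and Z2641, and at 59.3, 57.0 and 90.1 CPM in Eµ-TCL1 mice B4376, B4437 and C1594. Every transgenic mouse was far below every wildtype mouse, and among the transgenic mice C1594 and Z2606 were highest. The group means were 488 ± 33.6 CPM in wildtype, 44.0 ± 31.9 CPM in Eµ-MTCP1 mice and 68.8 ± 18.5 CPM in Eµ-TCL1 mice (SD, n = 3 each), which is 11.1-fold and 7.10-fold lower. The log2 fold change was -3.47 ± 0.46 (SE) in Eµ-MTCP1 (adjusted p = 0.00162, edgeR) and -2.83 ± 0.44 in Eµ-TCL1 mice (adjusted p = 0.00401). Both calls were kept under all 20 other settings, where the log2 fold change ran from -4.28 to -3.17 and from -3.07 to -2.63, the value of -4.28 being that without Z2606.

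Ccr6 showed the largest fold change with edgeR of the 4 genes that were called. It lies at chr17:8236043-8257141 on the plus strand, with 9 annotated transcripts. Ccr6 held 1080, 1209 and 948 reads in wildtype mice Z2754, Z2755 and Z2785, but 41, 29 and 24 reads in Eµ-MTCP1 mice Z2551, Z2606 and Z2641, and 65, 23 and 3 reads in Eµ-TCL1 mice B4376, B4437 and C1594. No transgenic library came near the wildtype level, and C1594 was at 3 reads. In CPM this is 136 ± 6.32 CPM in wildtype against 4.95 ± 1.56 CPM in Eµ-MTCP1 mice and 4.09 ± 4.43 CPM in Eµ-TCL1 mice, 27.6-fold and 33.4-fold lower. The log2 fold changes were -4.78 ± 0.72 (adjusted p = 0.00392, edgeR) and -5.06 ± 0.72 (adjusted p = 0.00323). The size in Eµ-TCL1 mice depended on single libraries, with log2 fold changes of -6.34 without B4376 and -4.53 without C1594. Limma on the authors' values gave -2.98 and -3.18 for the 2 comparisons. For Ccr7 it gave -3.28 and -2.63, so that in Eµ-MTCP1 mice the order of these 2 genes turned. The Eµ-TCL1 call was kept under all 20 other settings, and that in Eµ-MTCP1 mice under 19, the exception being a fit with an offset for transcript length (log2 fold change -4.62, adjusted p = 0.0595).

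Cxcr4 fell less, and unevenly in Eµ-MTCP1 mice. The gene lies at chr1:128588199-128592293 on the minus strand. Cxcr4 stood at 89.8, 81.3 and 84.8 CPM in wildtype mice, at 17.3, 51.9 and 14.9 CPM in Eµ-MTCP1 mice Z2551, Z2606 and Z2641, and at 28.3, 27.9 and 18.1 CPM in Eµ-TCL1 mice B4376, B4437 and C1594. The groups did not overlap with wildtype, but Z2606 lay apart from the other Eµ-MTCP1 mice. The means were 85.3 ± 4.23 CPM in wildtype, 28.0 ± 20.7 CPM in Eµ-MTCP1 mice and 24.8 ± 5.78 CPM in Eµ-TCL1 mice, 3.04-fold and 3.44-fold lower. Log2 fold changes were -1.60 ± 0.42 (adjusted p = 0.0417, edgeR) and -1.78 ± 0.43 (adjusted p = 0.0270). The calls held under 12 and 14 of 20 other settings. Without Z2606 the Eµ-MTCP1 value was -2.44 (adjusted p = 0.000713, edgeR). Leaving out 1 library ended the Eµ-MTCP1 call for 7 libraries (Z2754, Z2755, Z2785, Z2551, Z2641, B4376 and B4437) and the Eµ-TCL1 call for 6 (the wildtype and Eµ-TCL1 libraries), with adjusted p up to 0.133 and 0.0976. In these fits the log2 fold change lay between -1.65 and -1.32 in Eµ-MTCP1 mice and between -1.90 and -1.60 in Eµ-TCL1 mice.

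Cxcr3 was a minor transcript in wildtype cells and was lower still in both leukemias. Located at chrX:101731535-101734269 on the minus strand, it held 94, 106 and 137 reads in wildtype mice Z2754, Z2755 and Z2785, 13, 21 and 18 reads in Eµ-MTCP1 mice Z2551, Z2606 and Z2641, and 36, 7 and 7 reads in Eµ-TCL1 mice B4376, B4437 and C1594. All transgenic libraries were below all wildtype libraries, with B4376 the highest of them. Wildtype mice averaged 14.6 ± 5.28 CPM, Eµ-MTCP1 mice 2.70 ± 0.49 CPM and Eµ-TCL1 mice 2.28 ± 2.35 CPM. On the log2 scale the changes were -2.43 ± 0.64 (adjusted p = 0.0377, edgeR) and -2.68 ± 0.65 (adjusted p = 0.0255), and the calls held under 11 and 12 of 20 other settings. Without B4376 the Eµ-TCL1 value was -3.97, and limma gave -1.004 and -1.12. Where a call was lost the log2 fold change lay between -2.61 and -2.10 in Eµ-MTCP1 mice and between -2.83 and -2.07 with TCL1. Of the tables that also count untranslated sequence, the standard Salmon reference gave adjusted p values of 0.0635 and 0.111 and the whole-gene counts 0.0592 and 0.108. Leaving out any 1 of the 3 wildtype or 3 Eµ-MTCP1 libraries ended the Eµ-MTCP1 call (adjusted p up to 0.127), and leaving out any wildtype library, C1594 or B4437 ended the Eµ-TCL1 call (up to 0.0854). T cells, which use CXCR3, left a trace in these libraries. The 10 T cell markers summed to 72.3 to 104 CPM in wildtype, 36.0 to 140 CPM in Eµ-MTCP1 mice and 52.2 to 150 CPM in Eµ-TCL1 mice. B4376, with the highest sum, also had the highest Cd3e (7.07 CPM), Cd3d (8.73 CPM) and Cd8b1 (10.4 CPM). Cd3e was at most 1.66 CPM in the other 8 libraries. The markers did not all go together, since Z2641, with the sum of 140 CPM, had Cd3e at 0 CPM. Z2641 also had the highest Cd3g (22.5 CPM, against 20.2 CPM in B4376). The 5 natural killer cell markers summed to 18.5 to 44.2 CPM in wildtype, 1.16 to 13.2 CPM in Eµ-MTCP1 mice and 3.09 to 42.8 CPM in Eµ-TCL1 mice. Their sum was highest in Z2785 and, among transgenic mice, in B4376. The part of T cells or natural killer cells in the Cxcr3 level was not tested.

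**Figure D2:**
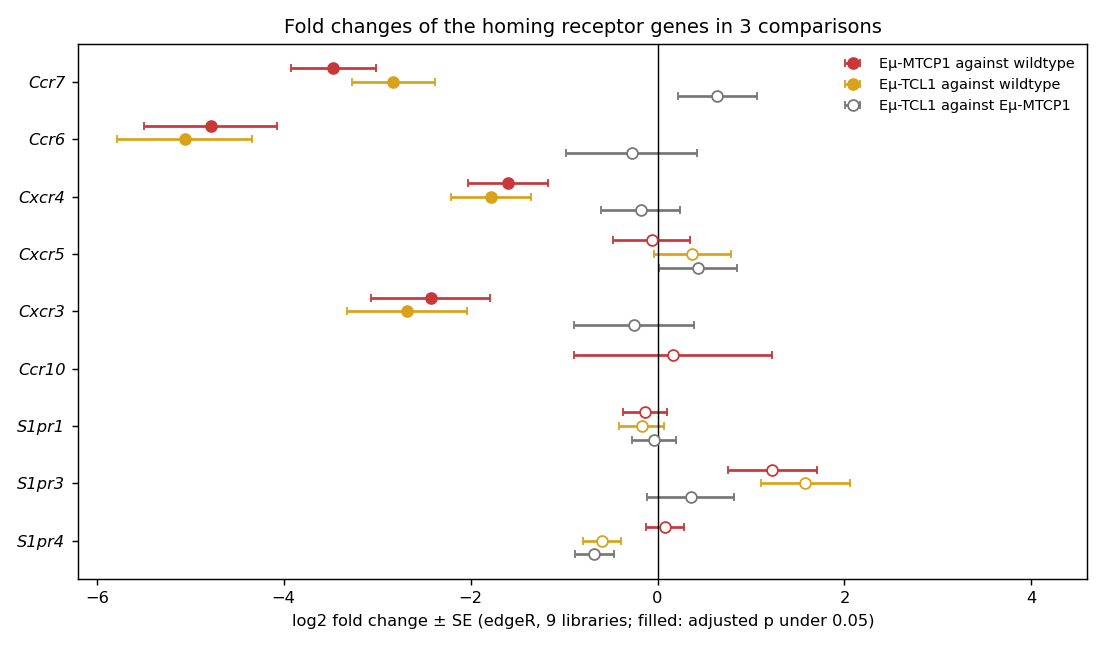
Log2 fold changes ± SE (horizontal axis) of the 9 receptor genes (rows) for Eµ-MTCP1 against wildtype (red), Eµ-TCL1 against wildtype (yellow) and Eµ-TCL1 against Eµ-MTCP1 (grey), with filled points where the adjusted p of edgeR was under 0.05. Ccr7, Ccr6, Cxcr4 and Cxcr3 have filled points between -5.06 and -1.60 against wildtype, no grey point is filled, and the fits of Ccr10 that involve Eµ-TCL1, where it has no reads, are left out.

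Cxcr5 and S1pr1, the receptors for follicle entry and for egress, had mean levels near those of wildtype cells. Cxcr5 (chr9:44511787-44561877, minus strand) stood at 100, 112 and 135 CPM in wildtype mice Z2754, Z2755 and Z2785, at 154, 138 and 40.7 CPM in Eµ-MTCP1 mice Z2551, Z2606 and Z2641, and at 178, 108 and 162 CPM in Eµ-TCL1 mice B4376, B4437 and C1594. Z2641 was low and the other 8 mice overlapped. The log2 fold changes were -0.06 ± 0.41 (adjusted p = 0.941, edgeR) and 0.37 ± 0.41 (adjusted p = 0.631), and 2 SE around them reach from -0.89 to 0.76 and from -0.45 to 1.19. At least 94.4% of the reads of Cxcr5 in each library belonged to 1 transcript, Cxcr5-201. Its annotated span overlaps that of Bcl9l on the opposite strand. The sign of the Eµ-MTCP1 value turned without Z2641 (0.31) and without wildtype mouse Z2785 (0.06).

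S1pr1 (chr3:115710433-115715072, minus strand) stood at 313, 306 and 348 CPM in wildtype mice, at 195, 393 and 291 CPM in Eµ-MTCP1 mice Z2551, Z2606 and Z2641, and at 250, 303 and 305 CPM in Eµ-TCL1 mice B4376, B4437 and C1594. Levels in Eµ-MTCP1 mice lay on both sides of the wildtype range, whereas those of Eµ-TCL1 mice ended just under it. Fitted log2 fold changes were -0.14 ± 0.24 (adjusted p = 0.758, edgeR) and -0.17 ± 0.24 (adjusted p = 0.701), with 2 SE reaching from -0.61 to 0.34 and from -0.64 to 0.30. A fall of the size seen for Ccr7 or Ccr6 lies outside these intervals. Without Z2551, the value in Eµ-MTCP1 mice was 0.09.

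The other S1P receptors had differences of opposite sign in Eµ-TCL1 mice, none of which passed the test. S1pr3 (chr13:51408639-51422797, plus strand, overlapping the lincRNA Gm32834 on the other strand) held 108, 211 and 66 reads in wildtype mice Z2754, Z2755 and Z2785, 387, 157 and 140 reads in Eµ-MTCP1 mice Z2551, Z2606 and Z2641, and 347, 501 and 211 reads in Eµ-TCL1 mice B4376, B4437 and C1594. In CPM, which allows for depth, wildtype mice were at 15.4 ± 6.71, Eµ-MTCP1 mice at 36.4 ± 23.6 and Eµ-TCL1 mice at 46.4 ± 16.1. All 3 Eµ-TCL1 mice were above the highest wildtype mouse, and Eµ-MTCP1 mice overlapped with it. The log2 fold changes were 1.23 ± 0.47 (unadjusted p = 0.0269, adjusted p = 0.143, edgeR) and 1.58 ± 0.48 (unadjusted p = 0.00763, adjusted p = 0.0678). The Eµ-TCL1 value passed under 3 of 20 other settings, namely DESeq2 (adjusted p = 0.0093), a fit of these 2 groups alone (0.0314) and a fit without Z2551 (0.0274). In Eµ-MTCP1 mice none of the 20 passed, and without Z2551, whose 63.6 CPM set the mean, the log2 fold change was 0.55.

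S1pr4 (chr10:81497747-81500132, minus strand) stood at 65.9, 67.1 and 88.5 CPM in wildtype mice, at 90.1, 63.9 and 80.6 CPM in Eµ-MTCP1 mice Z2551, Z2606 and Z2641, and at 46.6, 43.7 and 56.7 CPM in Eµ-TCL1 mice B4376, B4437 and C1594. Only the Eµ-TCL1 mice lay apart, below all other 6. Against wildtype the log2 fold change was -0.59 ± 0.21 in Eµ-TCL1 mice (unadjusted p = 0.0153, adjusted p = 0.102, edgeR) and 0.08 ± 0.21 in Eµ-MTCP1 mice (adjusted p = 0.833). Scaling by library size alone in place of TMM gave the Eµ-TCL1 value an adjusted p of 0.0468.

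Ccr10 was at the edge of detection. The gene lies at chr11:101172997-101175443 on the minus strand, and its span overlaps that of Cntnap1 on the opposite strand. It held 14, 19 and 6 reads in wildtype mice Z2754, Z2755 and Z2785, 1, 29 and 6 reads in Eµ-MTCP1 mice Z2551, Z2606 and Z2641, and 0 reads in all 3 Eµ-TCL1 mice. The wildtype mean of 1.57 ± 0.60 CPM was at least 3.91-fold above the level that 3 reads per library would give in Eµ-TCL1 mice, and that of Eµ-MTCP1 mice, 1.76 ± 2.09 CPM, at least 4.38-fold. Against wildtype the adjusted p in Eµ-TCL1 mice was 0.0554 (edgeR), and it passed 0.05 under 6 of the 18 other settings in which the gene could be fitted. The Eµ-MTCP1 mean rests on Z2606, which held 29 of the 36 reads. Plasma cell markers (Sdc1, Prdm1, Jchain, Xbp1 and Tnfrsf17) summed to 2919 CPM in Z2606, 1016 CPM in Z2551 and 332 CPM in Z2641, but also to 1962 CPM in B4376, where Ccr10 had no read. The part of plasma cells in the Ccr10 level was not tested.

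The direct comparison of Eµ-TCL1 with Eµ-MTCP1 mice called 0 of the 9 members, where 0.00896% of all genes tested were called (1 of 11161). At an unadjusted p under 0.05, 2 of the 9 members differed, where 6.19% of all genes tested did (691 of 11161). They were S1pr4, with a log2 fold change of -0.67 ± 0.21 (adjusted p = 0.692, edgeR), and Ccr10 (adjusted p = 0.611, edgeR). DESeq2 also called 0 members, with an adjusted p of 0.0529 for Ccr10. The 2 SE intervals of the difference were -0.20 to 1.48 for Ccr7, -1.68 to 1.13 for Ccr6, -1.02 to 0.66 for Cxcr4 and -1.54 to 1.04 for Cxcr3, all of which hold 0. The Ccr7 value depended on Z2606, being 0.64 ± 0.42 with it and 1.42 ± 0.25 without it (adjusted p = 0.856 and 0.167, edgeR).

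The make-up of the receptor transcripts was set side by side as TPM, a scale that divides by transcript length, on the coding reference. The order by mean TPM in wildtype mice was Ccr7 (294), S1pr1 (157), Ccr6 (142), Cxcr5 (66.9), S1pr4 (47.9), Cxcr4 (45.6), S1pr3 (10.1), Cxcr3 (7.68) and Ccr10 (1.67). Neighbours overlapped over mice for S1pr1 with Ccr6, Ccr6 with Cxcr5, S1pr4 with Cxcr4 and S1pr3 with Cxcr3. In Eµ-MTCP1 mice the order was S1pr1 (110), Cxcr5 (49.2), S1pr4 (40.1), Ccr7 (20.1), S1pr3 (17.6), Cxcr4 (11.4), Ccr6 (6.90), Ccr10 (1.39) and Cxcr3 (1.11), and every neighbouring pair after S1pr1 and Cxcr5 overlapped. In Eµ-TCL1 mice it was S1pr1 (115), Cxcr5 (65.7), Ccr7 (34.2), S1pr4 (27.5), S1pr3 (24.3), Cxcr4 (10.8), Ccr6 (5.58) and Cxcr3 (1.02), with Ccr10 at 0. Neighbours overlapped there for Ccr7 with S1pr4, S1pr4 with S1pr3, Cxcr4 with Ccr6 and Ccr6 with Cxcr3. On the standard reference, S1pr4 and Cxcr4 changed places in wildtype, Ccr10 and Cxcr3 in Eµ-MTCP1 mice, and S1pr4 and S1pr3 in Eµ-TCL1 mice. Ccr7 led in all 3 wildtype mice and S1pr1 in all 6 transgenic mice. The TPM of Ccr6 is uncertain, and its reads were split among transcripts of different length. Its wildtype mean was 142 ± 55.2 TPM on the coding reference and 81.0 ± 9.48 TPM on the standard one. In Eµ-MTCP1 mice the means were 6.90 ± 8.48 and 2.33 ± 0.88 TPM, and in Eµ-TCL1 mice 5.58 ± 6.75 and 2.05 ± 2.14 TPM. On the coding reference Z2641 had 16.7 TPM from 24 reads and Z2551 2.49 TPM from 41. B4437 had 13.1 TPM from 23 reads and B4376 3.44 TPM from 65.

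Summed over the 9 genes, receptor transcripts came to 773 ± 106 TPM in wildtype, 258 ± 42.2 TPM in Eµ-MTCP1 mice and 284 ± 3.53 TPM in Eµ-TCL1 mice. The 6 chemokine receptors held between 69.8% and 73.9% of this sum in wildtype mice, and the 3 S1P receptors between 62.0% and 70.5% in Eµ-MTCP1 mice and between 54.2% and 63.7% in the Eµ-TCL1 mice. The sum of the S1P receptors itself was 215 ± 17.5 TPM in wildtype, 168 ± 20.5 TPM in Eµ-MTCP1 mice and 167 ± 14.8 TPM in Eµ-TCL1 mice. The shift in shares thus came with the lower chemokine receptor sums. TPM sums are not TMM-scaled, and TMM factors were 1.02 to 1.18 (wildtype), 0.910 to 0.945 (MTCP1) and 0.960 to 1.02 (TCL1). The lower S1P receptor sums are therefore not read as a fall. In the same group order, mean TMM-scaled CPM was 322, 293 and 286 for S1pr1. It was 15.4, 36.4 and 46.4 for S1pr3, and 73.9, 78.2 and 49.0 for S1pr4. The ratio of Cxcr5 to Ccr7 was 0.192 to 0.267 in wildtype, 1.46 to 4.57 in Eµ-MTCP1 mice and 1.57 to 2.68 in the Eµ-TCL1 mice, and on the standard reference 0.253 to 0.287, 1.94 to 5.85 and 1.76 to 2.84. The ratio of S1pr1 to Ccr7 was 0.527 to 0.543 in wildtype, between 4.01 and 10.5 in Eµ-MTCP1 animals and between 2.74 and 4.24 in Eµ-TCL1 mice.

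**Figure D3:**
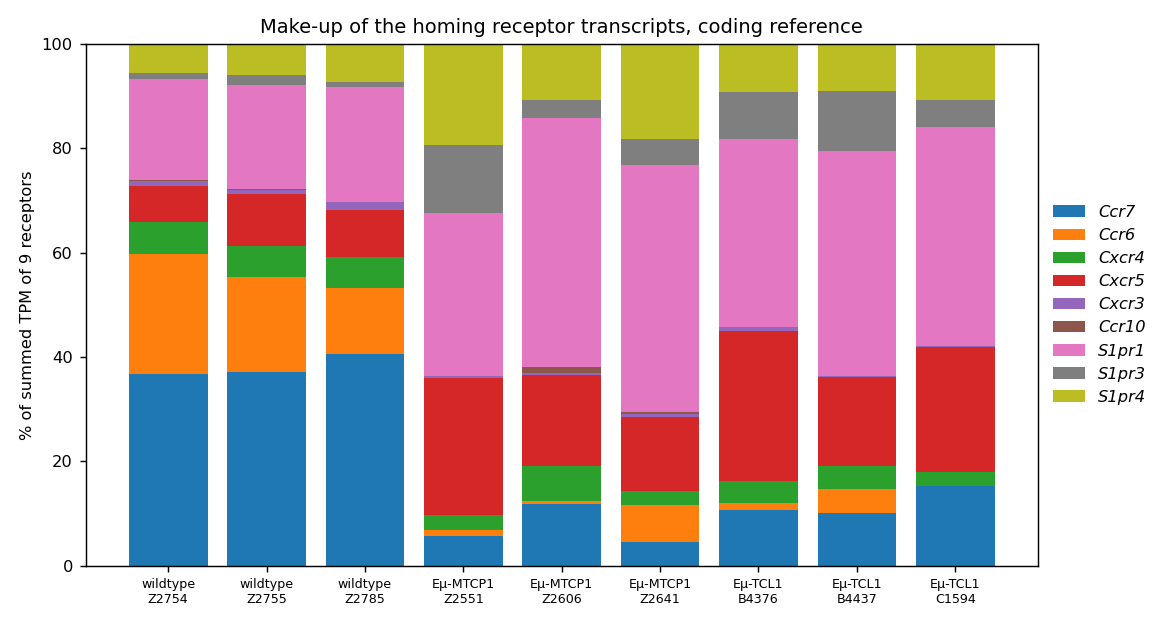
Share of each of the 9 receptor genes in their summed TPM (vertical axis, per cent) in each of the 9 libraries, named by group and mouse. Ccr7 (blue) and Ccr6 (orange) make up over 50% of the bar in each wildtype mouse, and S1pr1 (pink) and Cxcr5 (red) over 50% in each transgenic mouse.

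Upstream sequence is shown for the fallen receptors that the RefSeq promoter table holds, and for S1pr3 as a receptor not called lower, because KLF2 and FOXO1 are known to control homing receptor genes. Of the 9 members, 5 matched the table. Each line gives the 250 bases before the RefSeq transcription start, 5′ to 3′ on the strand of the gene (GRCm38.p6), with matches to CACCC, the core bound by KLF factors, or its reverse complement GGGTG in capitals. The RefSeq start of Cxcr3 differs from that of the annotation used for the gene's position, by which 122 bases of its window lie within the gene.
Cxcr4, chr1:128592300-128592549, minus strand: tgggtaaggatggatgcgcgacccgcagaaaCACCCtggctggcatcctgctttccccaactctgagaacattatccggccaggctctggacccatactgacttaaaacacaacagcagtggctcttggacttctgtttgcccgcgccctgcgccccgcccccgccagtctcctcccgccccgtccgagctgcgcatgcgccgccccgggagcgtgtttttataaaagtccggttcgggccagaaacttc
Cxcr3, chrX:101734148-101734397, minus strand: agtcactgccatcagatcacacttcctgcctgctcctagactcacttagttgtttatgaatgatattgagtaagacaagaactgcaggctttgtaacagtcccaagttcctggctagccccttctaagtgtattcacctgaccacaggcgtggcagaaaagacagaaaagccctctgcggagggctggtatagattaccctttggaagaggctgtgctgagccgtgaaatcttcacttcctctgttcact
Ccr6, chr17:8235793-8236042, plus strand: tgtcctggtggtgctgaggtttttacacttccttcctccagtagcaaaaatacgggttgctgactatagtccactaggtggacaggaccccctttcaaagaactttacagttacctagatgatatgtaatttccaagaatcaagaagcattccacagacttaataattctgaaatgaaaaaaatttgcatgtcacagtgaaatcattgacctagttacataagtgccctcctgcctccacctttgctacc
S1pr3, chr13:51408368-51408617, plus strand: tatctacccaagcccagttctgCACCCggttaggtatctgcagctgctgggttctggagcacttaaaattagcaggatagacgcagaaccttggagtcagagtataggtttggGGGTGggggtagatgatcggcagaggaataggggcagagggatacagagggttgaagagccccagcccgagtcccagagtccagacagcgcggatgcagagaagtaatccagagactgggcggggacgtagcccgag

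The CACCC core was found 1 time before Cxcr4, 2 times before S1pr3 and 0 times before Cxcr3 and Ccr6. S1pr4, the other matched receptor that was not called, had 1 match in its window, and a second Ccr6 window (chr17:8242276-8242525), which lies within the annotated gene, had 0. Of all 32851 promoter windows of this length, 52.0% held it on either strand. The FOXO motif GTAAACA or its reverse complement TGTTTAC was in none of these 6 windows and in 3.17% of all windows. The genes of both factors were examined outside the naming rule. Klf2 stood at 415, 500 and 250 CPM in wildtype mice Z2754, Z2755 and Z2785, at 317, 424 and 149 CPM in Eµ-MTCP1 mice Z2551, Z2606 and Z2641, and at 254, 205 and 295 CPM in Eµ-TCL1 mice B4376, B4437 and C1594, which overlap (log2 fold changes of -0.39 and -0.63, adjusted p = 0.543 and 0.322, edgeR). Foxo1 stood at 125 to 251 CPM in wildtype, 75.8 to 120 CPM in Eµ-MTCP1 mice and 59.5 to 113 CPM with TCL1, so that all 6 transgenic mice lay below all wildtype mice. It had log2 fold changes of -0.91 ± 0.33 and -1.09 ± 0.33 (adjusted p = 0.117 and 0.0645, edgeR).

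Some other regulators in the same list fell. Of 20 genes for transcription factors and surface regulators of homing receptors, 3 were lower and 0 higher in each leukemia (3.98% and 4.06% of all genes tested were lower), with a median log2 fold change of -0.53 in Eµ-MTCP1 mice and -0.48 in the Eµ-TCL1 mice. Bcl6, a repressor that drives the germinal centre program, was at 56.2 to 78.3 CPM in wildtype mice and at 4.91 to 18.5 CPM in the transgenic mice (log2 fold changes of -2.17 and -2.69, adjusted p = 0.00885 and 0.00327, edgeR). Bach2, a repressor of plasma cell fate, was at 83.5 to 89.3 CPM in wildtype, 34.5 to 45.0 CPM in Eµ-MTCP1 mice and 14.1 to 22.2 CPM in Eµ-TCL1 mice (-1.14 and -2.19, adjusted p = 0.00715 and 0.000228). Nfkb2, the non-canonical NF-kappaB subunit, passed in Eµ-MTCP1 mice (-1.77, adjusted p = 0.0194) and had a value of -0.16 in Eµ-TCL1 mice (adjusted p = 0.836). The difference between these values missed the threshold (1.61 ± 0.39, adjusted p = 0.463). Ebf1, a factor of B cell identity, fell in Eµ-TCL1 mice (-0.87, adjusted p = 0.0110) and had -0.59 in Eµ-MTCP1 mice (adjusted p = 0.0560). Cd69, whose protein takes S1PR1 off the cell surface, ranged from 10.3 CPM in Z2641 to 252 CPM in Z2606 among Eµ-MTCP1 mice and from 118 to 196 CPM with TCL1, against 283 to 346 CPM in wildtype mice, and did not pass (adjusted p = 0.337 and 0.558, edgeR). Z2606 was also the Eµ-MTCP1 mouse with the highest Cxcr4 and Ccr7.

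Of 10 tested genes for adhesion molecules that act beside the receptors, 3 were higher and 0 lower in each leukemia, where 5.47% and 5.11% of all genes tested were higher. The medians over the list were 0.16 and 0.29 on the log2 scale, and the other 7 genes did not pass. Itgb7, the integrin chain that pairs with alpha 4 for homing to the gut, stood at 424 to 668 CPM in wildtype, 1277 to 2424 CPM in Eµ-MTCP1 mice and 1264 to 2877 CPM in Eµ-TCL1 mice (log2 fold changes of 1.73 ± 0.35 and 1.83 ± 0.35, adjusted p = 0.0109 and 0.00832, edgeR). Itgb1, the beta 1 integrin chain, stood at 41.6 to 62.2 CPM in wildtype and at 192 to 370 CPM in the transgenic mice (2.59 and 2.26, adjusted p = 0.000235 and 0.000366). Cd44, a receptor for hyaluronan, had log2 fold changes of 1.23 and 1.85 (adjusted p = 0.0286 and 0.00403).

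Among 20 other chemoattractant receptors, 12 could be tested. Of these, 1 rose and 0 fell with MTCP1, and 1 rose and 1 fell with TCL1, near the shares over all genes (5.47% and 5.11% higher, 3.98% and 4.06% lower). Ccr1, a receptor for inflammatory chemokines of myeloid cells and activated lymphocytes, rose from 6.31 to 8.81 CPM in wildtype to 27.0 to 54.2 CPM in Eµ-MTCP1 mice and 15.1 to 26.7 CPM in Eµ-TCL1 mice (2.58 ± 0.34 and 1.50 ± 0.33, adjusted p = 0.00112 and 0.0170, edgeR). The 9 markers of monocytes, macrophages and granulocytes summed to 806 to 1699 CPM in wildtype, 525 to 1128 CPM in Eµ-MTCP1 mice and 148 to 1389 CPM in Eµ-TCL1 mice, and 0 of the 8 tested passed in either direction. Gpr183, the oxysterol receptor EBI2 that draws B cells to the outer follicle, fell in Eµ-TCL1 mice (-1.38 ± 0.28, adjusted p = 0.0109) and had -0.96 ± 0.27 in Eµ-MTCP1 mice (adjusted p = 0.0511).

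Of 9 tested genes that handle S1P itself, 2 rose and 0 fell in each leukemia, against 5.47% and 5.11% higher among all genes. Plpp3, a lipid phosphate phosphatase that breaks down S1P outside the cell, stood at 14.6 to 18.5 CPM in wildtype, 61.3 to 71.1 CPM in Eµ-MTCP1 mice and 38.3 to 69.7 CPM in Eµ-TCL1 mice (log2 fold changes of 1.93 and 1.54, adjusted p = 0.00118 and 0.00381, edgeR). Sgpl1, the S1P lyase, had values of 1.02 and 1.44 (adjusted p = 0.0371 and 0.00779). Of 10 genes for ligands of the chemokine receptors among the members, 1 (Ccl27a) had enough reads to be tested and did not pass, and the 10 summed to at most 6.51 CPM in any library.

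Of 33 tested genes of the signalling machinery that the receptors share, for G proteins, kinases, arrestins, RGS proteins and small GTPases, 2 rose and 0 fell in Eµ-MTCP1 mice, and 2 rose and 1 fell in Eµ-TCL1 mice, with medians of -0.02 and 0.10. These counts are near the shares over all genes (5.47% and 5.11% higher, 3.98% and 4.06% lower). Rac2, a GTPase of migrating blood cells, rose from a mean of 890 CPM in wildtype to means of 1706 CPM with MTCP1 and 1783 CPM with TCL1 (adjusted p = 0.0439 and 0.0333, edgeR). Gnb2, a G protein beta subunit, had log2 fold changes of 0.84 and 0.74 (adjusted p = 0.0255 and 0.0446). Rhoh, an atypical GTPase of blood cells, fell in Eµ-TCL1 mice (-1.09, adjusted p = 0.00795). Rgs1, an inhibitor of chemokine signalling, ranged from 20.4 to 53.5 CPM in wildtype, from 0.986 CPM in Z2551 to 62.9 CPM in Z2606 among Eµ-MTCP1 mice and from 1.80 to 26.0 CPM with TCL1, and did not pass (adjusted p = 0.809 and 0.601, edgeR). In the direct comparison 0 of the 85 tested genes of the 6 lists passed, with edgeR.

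Markers of B cell subsets moved with the receptors. Of 6 markers of follicular and marginal zone B cells, 4 fell in each leukemia and 1, Mzb1, rose in Eµ-MTCP1 mice (1.66, adjusted p = 0.0437, edgeR). On the log2 scale the complement receptor Cr2 changed by -5.18 and -5.85, Fcer2a (CD23) by -5.19 and -6.55, Ighd by -2.86 and -3.46 and the Notch target Dtx1 by -0.98 and -1.07. The 5 markers other than Mzb1 summed to 2273 to 2879 CPM in wildtype, 260 to 421 CPM in Eµ-MTCP1 mice and 207 to 343 CPM with TCL1, and Mzb1 alone stood at 280 to 477, 581 to 1792 and 487 to 1193 CPM. Of 6 markers of B1 cells, 5 rose in each leukemia, Cd5 by 4.02 and 4.44, Zbtb32 by 4.81 and 4.94, Ctla4 by 2.90 and 2.18, Bhlhe41 by 2.99 and 1.87 and Plscr1 by 2.89 and 2.40. The part of such a change of B cell subset in the levels of Ccr7, Ccr6, Cxcr4 and Cxcr3 was not tested. Of the remaining lists, Cd22 and the dendritic cell gene Flt3 fell in Eµ-TCL1 mice (-0.90 and -3.06) and the plasma cell factor Prdm1 rose in both (2.11 and 1.83), and 0 tested markers of T cells, natural killer cells, myeloid cells, erythroid cells, platelets or stroma passed.

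The genes whose log2 CPM followed each receptor most closely over the 9 libraries were listed as a description, among 10957 genes, and the points share the contrast between wildtype and transgenic mice. Ccr6 was nearest to Eid1 (Pearson r = 0.989), Satb1 (0.981) and Bcl6 (0.979). Among the 3 nearest to Ccr7 were Ciart (0.976) and Sptbn1 (0.967), and Cxcr4 was nearest to Fut4 (0.982), Tk2 (0.976) and H2-Eb2 (0.975). Cxcr3 was nearest to Gch1 (0.975), Bcl6 (0.967) and Asb2 (0.953), so that Bcl6 stood in the lists of both Ccr6 and Cxcr3. Among the receptors not called, Cxcr5 was nearest to Pde4dip (0.967), Atg13 (0.962) and Acaa1a (0.961), S1pr1 to Clcn6 (0.961), Atl1 (0.925) and Wdr60 (0.888), S1pr3 to Gpt (0.954), Gstm4 (0.931) and Rab5if (0.930), and S1pr4 to 2310022A10Rik (0.928), Gcdh (0.920) and Hist1h2ac (0.913).

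**Figure D4:**
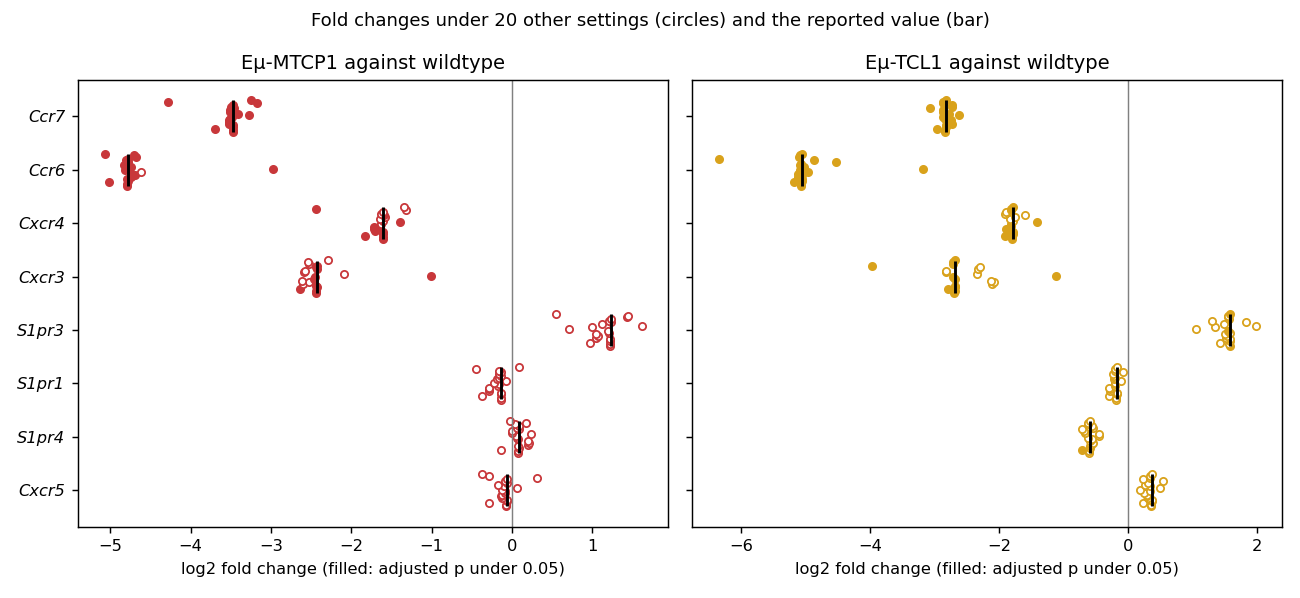
Log2 fold change against wildtype (horizontal axis) of 8 genes (rows) in Eµ-MTCP1 (left) and Eµ-TCL1 mice (right) under 20 other settings (circles, filled where the adjusted p was under 0.05), with the reported value as a black bar. All circles of Ccr7 are filled in both panels, those of Cxcr4 and Cxcr3 are filled in part, and those of S1pr1 and Cxcr5 are open and lie within 1 log2 unit of 0.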

How the data were processed

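RNA of splenic B cells, isolated with a pan-B-cell kit, was sequenced by the authors with 1 library per mouse. The methods name both a SMARTer and Nextera XT preparation and a TruSeq stranded kit, so that strand use in counting is not known. Transcript-level estimated counts come from a Salmon run by the authors (version 1.0.0 per the submitters' processing notes), on a reference of 57871 sequences that held 17 human ones and in which 87.3% of lengths are multiples of 3, so that reads in untranslated regions were largely not counted. The authors ran Salmon in the same way on a standard reference of 140748 transcripts, and the deposited TPM values of both runs were summed per gene. Whole-gene counts and counts after the CLEAR coverage filter were also deposited, the notes naming HISAT2 2.0.6 and featureCounts, and the authors' normalized values are on a log2 scale. Columns with the authors' own fold changes and p-values were not used.

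Estimated counts were summed per gene with GENCODE M21 (GRCm38) and rounded. The study states release 23, and 442 transcripts absent from M21, with at most 0.291% of the reads, were left out, as were the human transgenes. Genes were filtered with filterByExpr (11161 kept), scaled by TMM and tested in edgeR 4.0.16 under R 4.3.3 (glmQLFit and glmQLFTest) with 1 fit of all 9 libraries, two-sided, with Benjamini-Hochberg adjustment over all genes tested and a threshold of 0.05. Recovery of known fold changes was checked on simulated counts. Alternatives used DESeq2 1.42.0, limma 3.58.1, other scalings, filters and count tables, and fits without each library in turn. The labels carry no replicate numbers, so no pairing was examined. The 9 members and the gene lists were chosen with earlier results of these data known. From each list, genes called in any comparison were named (at most 6), and for each member with a mean of at least 5 CPM the 3 genes closest to it. Klf2, Foxo1, Cd69, Rgs1, Ccl27a and the T cell genes Cd3d, Cd3e, Cd3g and Cd8b1 were added after their values were seen. A few genes of the lists are not reported here. Intervals of 2 SE and the floor of 3 reads cover these samples and counting error only.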

Additional observations from a re-analysis of the deposited data

How the results depend on the processing

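No paired analysis was possible because the labels carry no replicate numbers. Over all genes, DESeq2 called 1645 and 1691 genes against wildtype (1054 and 1023 with edgeR) and 68 in the direct comparison (1 with edgeR). Leaving out 1 library gave 514 to 1042 genes for Eµ-MTCP1 and 515 to 1235 for Eµ-TCL1 against wildtype, and 1 to 4 in the direct comparison. The counts moved by over 1.5 times without wildtype mice Z2755 (550 and 540) or Z2754 (514 and 515), without Z2551 for Eµ-MTCP1 (602) and without C1594 for Eµ-TCL1 (644). The direct comparison called 2 genes without immunoglobulin segments, 7 without an expression filter, 4 with the deposited gene counts, 6 with the standard reference, 0 with the CLEAR-filtered counts (676 at an unadjusted p under 0.05 with edgeR), 3 with the 2 groups alone and 2 with limma. Scaling by library size alone changed the split of calls to 403 up and 744 down for Eµ-MTCP1 (610 and 444 with TMM), and to 447 up and 574 down for Eµ-TCL1 (570 and 453). Without immunoglobulin segments it was 589 and 285, and 541 and 284, and with limma 501 and 506, and 502 and 528. Among members, 2 to 4 were lower with MTCP1 and 2 to 5 with TCL1 over the 20 settings. The signs of Ccr7, Ccr6, Cxcr4, Cxcr3 and S1pr3 against wildtype were kept in all of them.

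Some log2 fold changes near 0 turned their sign, none of them called. For Ccr10 in Eµ-MTCP1 mice the value was -0.0896 with library size alone, -0.18 with the deposited counts, -0.0652 with the standard reference and -0.0535 with limma, and -1.46 to 0.70 without 1 library. For S1pr4 it was -0.14 with library size alone and -0.0312 to 0.23 without 1 library, for Cxcr5 -0.37 to 0.31 and for S1pr1 -0.44 to 0.0878. In the direct comparison, Cxcr3 had 0.50 with the deposited counts, 0.45 with the standard reference and 0.49 with the CLEAR-filtered counts, and S1pr1 had 0.0693 with library size alone, 0.0102 with the deposited counts, 0.0168 with the standard reference and 0.0227 with limma. Without 1 library the direct values ran from 0.31 to 1.42 for Ccr7, -0.50 to 0.63 for Cxcr4, -1.54 to 0.14 for Cxcr3, -1.56 to 0.25 for Ccr6 and -0.26 to 0.24 for S1pr1. The cause was not tested. At 3 reads per 0.326 to 0.496 CPM, depth limits Ccr10 most, and Cxcr3 and Ccr6 in the transgenic mice.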

Other observations

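Transcript shares of the receptors were read on the standard reference, as values with no test. Cxcr4-202, the shorter of the pair of Cxcr4 transcripts, held 8.38 to 14.04% of the Cxcr4 reads in wildtype, 4.07 to 10.6% with MTCP1 and 4.40 to 11.1% with TCL1, and these ranges overlap. For Ccr6, Ccr6-201 held 30.1 to 32.9% of the reads in wildtype, 38.2 to 52.4% with MTCP1 and 0 to 40.2% with TCL1, and Ccr6-202 held 21.5 to 34.1%, 0 to 55.0% and 0 to 44.5%. The Ccr6 reads of the 3 libraries summed to 128 with MTCP1 and 111 with TCL1, against 4122 in wildtype, and the ranges of Ccr6-201 in wildtype and with MTCP1 do not overlap.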
